A study of Homo sapiens with 33 samples.

Results

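The comparison described here set RNA recovered through FLAG against RNA recovered through HA, 2 epitope tags on the same protein, MCP. The members were the 3 FLAG and 3 HA immunoprecipitate libraries of the MS2 pool, 6 of 33 libraries in the series, and were chosen from their labels. All tiles of the pool, named ms2-4x with a number from 1 upward, and all 5250 of their barcodes, 50 to a tile, entered the comparison. HEK293T cells, a line derived from human embryonic kidney, expressed FLAG-HA-MCP in every group, Input included, and had received the MS2 oligonucleotide pool by transfection. They were collected after 48 hours, fixed in 0.1% formaldehyde for 10 minutes and precipitated with an antibody against FLAG or against HA, or left unprecipitated as Input (3 libraries). The only labelled difference between the compared groups is the antibody. Each library was a single-end amplicon read-out of cDNA from the pool. Separate cultures are not named for the 3 replicates; p-values here speak only of library-to-library spread, possibly a technical one. Precipitates from cells without MCP were not analysed here, and as the table counts only transfected oligonucleotides, no marker of the cell line was read.

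MCP is the coat protein of bacteriophage MS2. It binds, as a dimer, a short hairpin of the phage RNA, and copies of that hairpin are widely used to tether proteins to an RNA or to pull an RNA down with its partner. FLAG is a short synthetic peptide and HA a peptide from influenza haemagglutinin. Both tags sit on 1 protein, so the comparison asks how far the RNA recovered depends on which tag the antibody reads.

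By their medians over tiles 10 to 67 and from 68 on, the libraries of replicate number 1 departed least from Input with both antibodies. Over tiles 2 to 9 those of number 3 did. FLAG libraries held 4530657, 5970277 and 5324444 reads and HA libraries 5513258, 5696133 and 6843839. For each library the log2 ratio of a tile's CPM (its count scaled for library size, with TMM factors) to the Input of the same number was taken. Over the tiles numbered 68 and above its median was -0.54, -1.21 and -1.50 in FLAG libraries 1, 2 and 3, and -0.75, -1.13 and -1.04 in HA libraries 1, 2 and 3. The antibodies thus overlapped, and FLAG replicate 1 lay closest to Input and FLAG replicate 3 farthest. Over tiles 10 to 67 the medians were -0.07, 0.19 and 0.29 with FLAG and 0.05, 0.17 and 0.22 with HA, and over tiles 2 to 9 they were 0.58, 0.63 and 0.53 with FLAG and 0.69, 0.70 and 0.49 with HA. The order of the 3 ranges was the same in each of the 6 libraries. As the ranges were chosen with earlier results of these data known, that order is a description and no separate support.

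**Figure D1:**
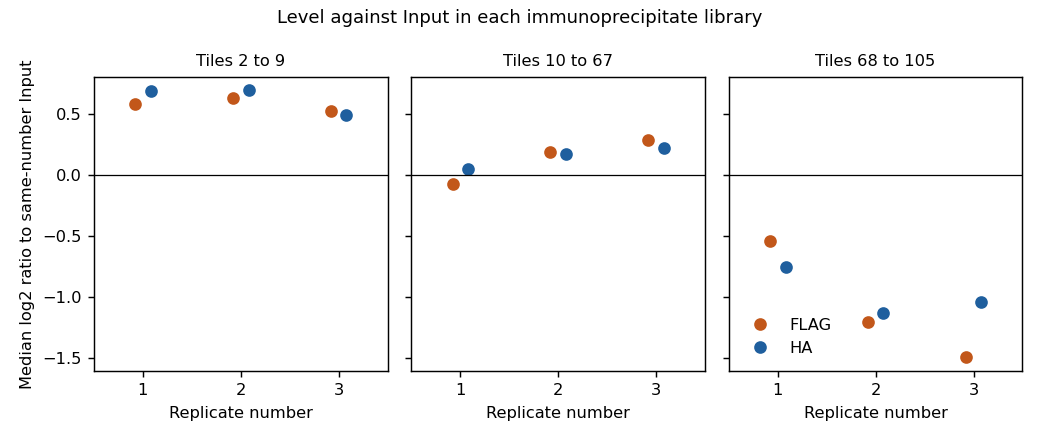
Median log2 ratio of tile CPM to the Input of the same replicate number (y axis) for each FLAG and HA library by replicate number (x axis), in 3 ranges of tile numbers; each point is 1 library. In the tiles from 68 on the library of number 1 lies nearest to 0 with both antibodies, at -0.54 and -0.75, and FLAG replicate 3 lies lowest at -1.50.

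No tile passed the test of FLAG against HA. Of 104 tiles tested with edgeR's quasi-likelihood test, 0 passed at an adjusted p under 0.05 in either direction (0% called), and 1, ms2-4x:13, had an unadjusted p under 0.05. The Wald test of DESeq2 also called 0. Without FLAG replicate 1, 14 tiles had an unadjusted p under 0.05 and without FLAG replicate 3, 6 did, again with 0 past the adjusted threshold (smallest adjusted p = 0.184 and 0.232 in edgeR). The remaining tile, ms2-4x:1, had no read in any of the 9 MS2 libraries for any of its 50 barcodes and was not tested. The fitted log2 fold change of FLAG over HA ran from -0.61 to 0.51 with a median of -0.02, with 59 tiles higher with HA and 45 higher with FLAG. In absolute size its median was 0.08 (1.06-fold) and its upper quartile 0.17 (1.12-fold). The value was under 0.5 in size for 102 tiles.

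How much disagreement these libraries could still hold is given by the 95% interval of each tile's difference. That interval lay wholly between -0.5 and 0.5 for 55 of 104 tiles (52.9%) and between -1 and 1 for 97 (93.3%). Its median margin on either side of the fitted value was 0.37, which is 1.29-fold. Without HA replicate 3, only 32 tiles had an interval inside 0.5. When the FLAG and HA libraries were fitted without Input, 45 tiles did, and 61 did with the replicate number as a block. In the fit with all libraries, the 7 tiles whose interval reached beyond 1, a 2-fold difference, all had numbers of 68 or more. Precision differed between the ranges of tile numbers: in tiles 2 to 9, 10 to 67 and from 68 on the median margin was 0.14, 0.33 and 0.50, and 8 of 8, 39 of 58 and 8 of 38 tiles lay inside 0.5. The median difference was -0.01, -0.02 and -0.02 in these ranges, beside -0.02 over all tiles, and these signs are not stable: over all tiles the median was 0.0010 with RLE factors and 0.0057 with library size only. Without FLAG replicate 1 the median was 0.07 for tiles 10 to 67 and -0.25 for those from 68 on, so 1 library decided the value of the last range.

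**Figure D2:**
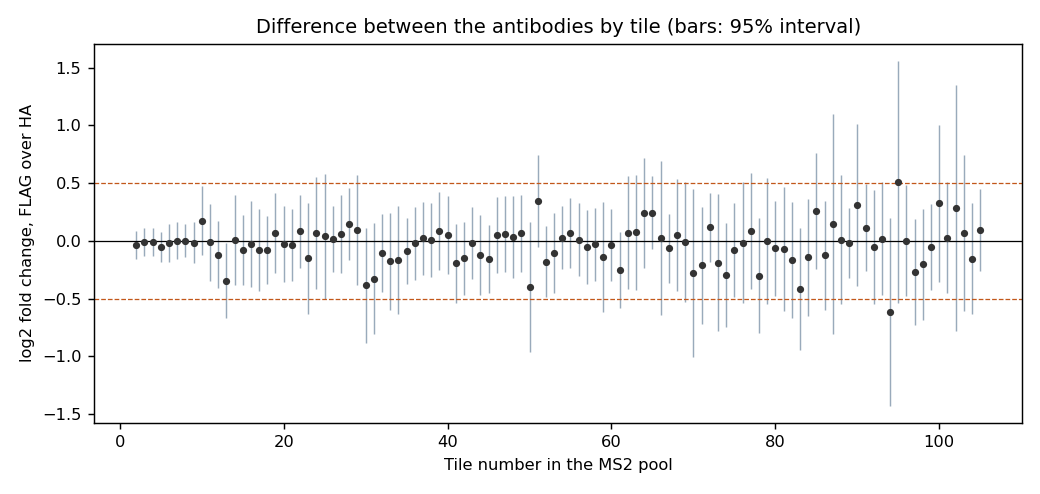
Fitted log2 fold change of FLAG over HA (y axis) for the 104 tested tiles by tile number (x axis); points are fitted values, bars 95% intervals, and dashed lines mark -0.5 and 0.5. The intervals of tiles 2 to 9 are narrow, with margins of 0.12 to 0.18, and the 7 that pass 1 in size have tile numbers of 68 or more.

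The 8 most abundant tiles, ms2-4x:2 to ms2-4x:9, gave the closest match. They took 61.3% to 64.0% of the reads of the 6 precipitates and at most 51.1% of those of an Input library. The tile ms2-4x:2 was at 133824, 143328 and 131813 CPM in FLAG libraries 1, 2 and 3 and at 141791, 150154 and 127835 CPM in HA libraries 1, 2 and 3. FLAG values lay within the range of the HA values, and both stood above Input (92712 to 98848 CPM). The difference was -0.04 ± 0.06 (log2, SE, n = 3 against 3), with an interval of -0.16 to 0.09. For ms2-4x:8, the tile highest against Input with either antibody, the FLAG libraries gave 66723, 67350 and 62770 CPM and the HA libraries 68052, 62235 and 66554 CPM. The groups overlapped, and the fitted ratio was 1.00 with an interval of -0.14 to 0.14 in log2. Tiles 3, 4 and 5 of the pool differed by -0.01, -0.01 and -0.05. Over the 8 tiles no interval went below -0.20 or above 0.16, and between 18 and 26 of 50 barcodes per tile were higher with FLAG.

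Among the tiles lower with FLAG, ms2-4x:13 had the smallest p. Its FLAG libraries were at 5721, 6096 and 8478 CPM and its HA libraries at 7613, 9862 and 8345 CPM. The low values were those of FLAG replicates 1 and 2, while FLAG replicate 3 lay inside the HA range. HA was 1.27-fold higher (log2 difference -0.35 ± 0.16, SE, n = 3 against 3, interval -0.67 to -0.02, unadjusted p = 0.0369 and adjusted p = 1.00 in edgeR), and 38 of 50 barcodes were higher with HA. Its difference was -0.21 without FLAG replicate 1 and -0.54 without FLAG replicate 3. No other tile had so large a share of its barcodes on the HA side. The barcodes of a tile make up its sum, so this share is no separate support for the difference. The largest difference among the tested tiles, -0.61 ± 0.40, was that of the scarce tile ms2-4x:94. Its FLAG libraries gave 614.8, 161.3 and 705.6 CPM and its HA libraries 624.8, 897.0 and 743.9 CPM. FLAG replicate 2 alone stood apart, and the fitted value was -0.19 without it and -0.96 without FLAG replicate 3. Only 28 of its barcodes had at least 30 reads over both groups, and 1 of them, Barcode:43, held 35.4% of its scaled FLAG count.

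The next lowest differences belonged to tiles 83 (-0.41 ± 0.26), 50 (-0.40 ± 0.27) and 30 (-0.39 ± 0.24). Each depended on single libraries: tile 83 was at -0.11 without FLAG replicate 1 and -0.77 without FLAG replicate 3, tile 50 at -0.76 without FLAG replicate 1 and -0.11 without FLAG replicate 2, and tile 30 at -0.56 without FLAG replicate 1 and -0.18 without FLAG replicate 3. For ms2-4x:83 the FLAG libraries gave 1666, 2858 and 4152 CPM and the HA libraries 3143, 4470 and 3955 CPM, so FLAG replicate 3 again lay within the HA range. For ms2-4x:30 the values were 2237, 1866 and 1236 CPM with FLAG and 2707, 2384 and 1892 CPM with HA, HA being higher within each number although the groups overlapped. When only barcodes with a read in all 6 libraries were summed, ms2-4x:50 and ms2-4x:30 changed sign, to 0.31 and 0.18. The groups did not overlap in 1 of 104 tiles (0.962%), ms2-4x:45, which was chosen after its values were seen. It was at 4523, 4520 and 4362 CPM with FLAG and at 4952, 5219 and 4787 CPM with HA, a difference of -0.16 ± 0.15. Within numbers, HA was the higher library in all 3 pairs for 14 of the 104 tiles and FLAG for 8. In the others the order was mixed, with FLAG higher in 1 pair for 53 and in 2 for 29.

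On the FLAG side the 5 highest fitted values belonged to tiles 95, 51, 100, 90 and 102, and all 5 intervals held 0. The tile ms2-4x:95 was at 377.3, 289.1 and 111.7 CPM with FLAG and at 204.9, 102.3 and 239.5 CPM with HA. The groups overlapped over most of their range, and the difference of 0.51 ± 0.51 had an interval of -0.54 to 1.56. It was 0.15 without FLAG replicate 1 and 0.87 without FLAG replicate 3. For ms2-4x:51 the FLAG libraries held 5124, 3637 and 2651 CPM and the HA libraries 3630, 3010 and 2353 CPM. FLAG was higher within each number and values were lower at number 3 with both antibodies, so that the groups overlapped (difference 0.34 ± 0.20, interval -0.06 to 0.74, 34 of 50 barcodes higher with FLAG). The difference of ms2-4x:51 was 0.10 without FLAG replicate 1 and 0.55 without FLAG replicate 3. The tile ms2-4x:65 was also higher with FLAG within each number, with 4534, 5248 and 5631 CPM against 3955, 4294 and 4782 CPM, a difference of 0.24 ± 0.15. The rest of the 5 highest were tiles 100 (0.33 ± 0.33), 90 (0.31 ± 0.31) and 102 (0.29 ± 0.47). In tile 102, FLAG replicate 1 stood at 4131 CPM against 1606 and 1318 CPM in the other FLAG libraries, and HA replicate 1 at 3003 CPM against 1188 and 1594 CPM. Number 1 was thus the high one with both antibodies. Without FLAG replicate 1, tiles 90 and 102 turned to -0.19 and -0.37. Tile 100 was at 0.16 without HA replicate 2 and 0.63 without HA replicate 1, and turned to -0.46 when only barcodes with a read in all 6 libraries were summed. The interval of tile 102, with a margin of 1.07, was the widest of the 104.

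Some tiles passed against Input with 1 antibody and not the other, and the direct comparison did not separate them. With FLAG 55 of 104 tiles (52.9%) passed against Input and with HA 56 (53.8%), both against the same 3 Input libraries, and 0 passed in opposite directions. Those that passed with FLAG and not with HA were tiles 30, 31, 33 and 74, at -0.73, -0.70, -0.61 and -0.57 with FLAG (adjusted p = 0.0136 to 0.0300 in edgeR) and at -0.35, -0.38, -0.43 and -0.27 with HA (adjusted p = 0.0763 to 0.301 in edgeR). Their FLAG minus HA differences, -0.39, -0.33, -0.18 and -0.30, each had an interval that held 0. Those that passed with HA and not with FLAG were tiles 13, 67, 87, 95 and 102. The tile ms2-4x:13 stood at 0.46 ± 0.16 over Input with HA and at 0.12 ± 0.16 with FLAG, and ms2-4x:67 at 0.37 ± 0.15 and 0.31 ± 0.15. The other three were lower than Input with both antibodies, at -1.22, -1.24 and -1.31 with HA and at -1.08, -0.73 and -1.02 with FLAG. Of these 9 tiles only ms2-4x:13 had a direct interval that left out 0.

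By the median difference over tiles, a FLAG and an HA library with 1 number in common lay on average closer together than libraries of different numbers. The mean chi-square statistic gave that order too, but root mean square did not. The median absolute log2 CPM difference over the 104 tiles was 0.17, 0.14 and 0.16 between FLAG and HA of numbers 1, 2 and 3. Between 2 FLAG libraries it was 0.20 to 0.47 and between 2 HA libraries 0.15 to 0.22. It was 0.16 to 0.36 between a FLAG and an HA library of different numbers. By root mean square the mean distance was 0.354 for pairs with 1 number in common and 0.322 for 2 HA libraries, and FLAG replicate 3 with HA replicate 2 (0.297) lay closer than any of the former. The distances were not tested, because each library enters 5 of the 15 pairs. The chi-square statistic of tile counts per degree of freedom was 369, 390 and 361 for the same-number pairs and 353 to 1426 for the others, above the sampling noise of reads in each pair, which does not tell biological from technical replicates. The mean statistic was 373 for same-number pairs, 528 for 2 HA libraries and 1021 for 2 FLAG libraries. For different numbers and antibodies it was 748.

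**Figure D3:**
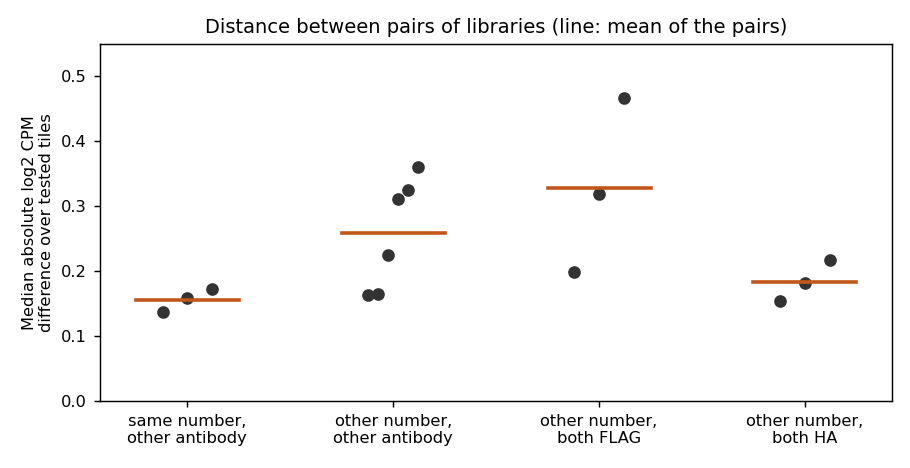
Median absolute log2 CPM difference over 104 tiles (y axis) for each of the 15 pairs of FLAG and HA libraries (points), sorted by whether the pair shares its replicate number or its antibody (x axis); lines are means. Pairs of 1 number and different antibodies lie at 0.14 to 0.17, and the 3 FLAG pairs at 0.20 to 0.47.

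Ratios to Input were also compared between replicate numbers, so that they had no library in common. When the FLAG over Input ratio of one number was set against the HA over Input ratio of another, Pearson's r over 104 tiles was 0.65 to 0.92 in the 6 possible pairs. It was 0.70 to 0.87 between FLAG ratios of different numbers and 0.85 to 0.92 between HA ratios. The lowest values, 0.65 to 0.72, were those of FLAG replicate 1 with any other library. Tiles are not independent replicates, and all ratios share the pool and its uneven abundance, so these are descriptions. Single values per library overlapped between the antibodies. The share of reads in the tiles from 68 on was 8.97% ± 1.70 with FLAG and 8.93% ± 0.59 with HA (SD, n = 3 each, exact two-sided permutation p = 1.00), where Input had 17.5% to 18.0%. Of 7 such measures none had an exact permutation p below 0.40 (0.933 after Benjamini-Hochberg adjustment over the 7), and 3 against 3 libraries cannot reach below 0.10. These tests leave out the pairing by number.

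Single barcodes were far noisier than their tile sums, though again none passed. Barcodes are short tags that mark copies of one tile, so the 50 of a tile share its sequence and are not separate targets. Of 5030 barcodes tested, edgeR called 0 (0%), with 212 (4.21%) at an unadjusted p under 0.05, of which 91 were higher with FLAG and 121 with HA. DESeq2, which gave no adjusted p for 147 of them, made 141 calls among the other 4883, 66 higher with FLAG and 75 with HA. The calls came from 48 tiles, and 100 of the 141 lay in the tiles from 68 on. Of these 141, 132 had no read in at least 1 of the 6 libraries and 106 had none in all 3 libraries of 1 antibody. The fitted log2 difference had quartiles of -0.66 and 0.55. It was at least 1 in size for 1646 barcodes (32.7%), whether fitted values or a 3-read floor were used for barcodes at 0. The median margin of the 95% interval was 3.38, against 0.37 for tiles. Between FLAG and HA libraries with 1 number in common, Pearson's r of log2 CPM was 0.978, 0.971 and 0.985 over the 104 tiles and 0.486, 0.508 and 0.636 over the 5030 tested barcodes (with 1 CPM added), a description over features that share the pool and the library. Over barcodes with at least 30 reads in both groups together, 47.4% were higher with FLAG, and per tile this share was lowest in ms2-4x:13, with 12 of 50, and highest in ms2-4x:51, with 34 of 50.

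The disagreement between barcodes narrowed with their depth. Barcodes with a mean of under 100 reads per library differed by a median of 1.88 in absolute log2 (n = 579), those with 100 to under 300 by 1.02 (n = 1385), those with 300 to under 1000 by 0.55 (n = 2296) and those with 1000 or more by 0.20 (n = 770). The share that differed at least 2-fold was 66.8%, 50.6%, 23.1% and 3.64% in this order. The share with a read in all 6 libraries was 4.84%, 17.8%, 69.7% and 98.7%.

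**Figure D4:**
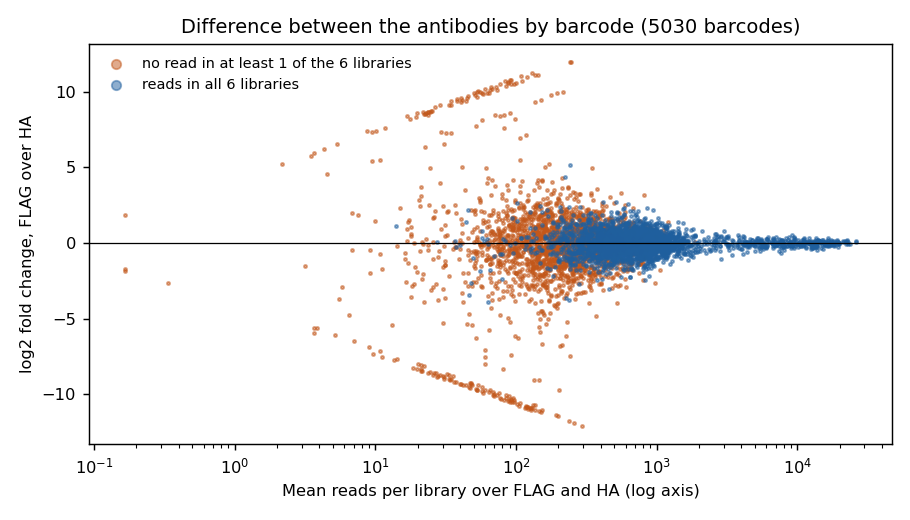
Fitted log2 fold change of FLAG over HA (y axis) against mean reads per FLAG and HA library (x axis, log scale) for 5030 tested barcodes; orange points had no read in at least 1 of the 6 libraries. Barcodes of 1000 or more mean reads lie close to 0 (median absolute value 0.20), and the bands at the top and bottom are barcodes at 0 with 1 antibody, whose fitted values depend on the prior count and are no bound.

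Barcodes were often missing from a precipitate although present in Input. In FLAG libraries 1, 2 and 3, 1193, 1370 and 655 of the 5250 barcodes had no read, in HA libraries 880, 1115 and 589, and in Input 512, 383 and 319. FLAG had more missing barcodes in all 3 pairs, but the groups overlapped (exact permutation p = 0.40 unpaired, n = 3 against 3). Taken as pairs, the exact two-sided sign-flip test gave p = 0.25, the smallest that 3 pairs allow. In tiles 2 to 9 each of the 400 barcodes had reads in every library. In the tiles from 68 on, 23.1% to 44.3% of 1900 barcodes were missing with FLAG and 20.2% to 36.0% with HA, against 10.1% to 14.6% in Input. With the 103 never read included, the barcodes missing with both antibodies of number 1, 2 and 3 numbered 450, 606 and 292. They were 37.7%, 44.2% and 44.6% of those missing with FLAG and 51.1%, 54.3% and 49.6% of those missing with HA. For a FLAG and an HA library of different numbers these shares were 28.9% to 57.9% and 34.0% to 67.2%, a range that takes in the same-number values.

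A few barcodes were read in all libraries of 1 antibody and in none of the other. Of the 5250 barcodes, 7 were such with FLAG and 25 with HA. Each FLAG library also had more barcodes with no read than the HA library of the same number. Whether that alone gives the larger count with HA was not tested. ms2-4x:92 Barcode:42 had 162, 367 and 189 reads with FLAG and none with HA. It was 269.8-fold higher at a floor of 3 reads over the HA group, with an interval that began at 87.7-fold. ms2-4x:63 Barcode:19 had 326, 765 and 351 reads with FLAG and none with HA. It was 542-fold higher at that floor, with an interval that began at 84.9-fold. On the HA side ms2-4x:93 Barcode:47 had 436, 222 and 240 reads and none with FLAG. It was 266-fold higher at the same floor for FLAG (interval of the log2 difference -16.5 to -5.89). All of these were also read in the 3 Input libraries. The tile ms2-4x:23 held examples in both directions: its Barcode:44 had 403, 435 and 581 reads with HA and none with FLAG, while its Barcode:34 had 459, 674 and 154 reads with FLAG and 1, 0 and 0 with HA. Summed over its barcodes ms2-4x:23 differed by -0.15. These 5 barcodes had the smallest p in edgeR, where none passed (adjusted p = 0.918 for each), while all 5 passed in DESeq2 (largest adjusted p = 1.97e-07).

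The 3 highest and 3 lowest fitted differences were at barcodes with no read for 1 antibody, 2 of them named already, and 3 of the other four were missing from at least 1 Input library. ms2-4x:82 Barcode:14 had 380, 670 and 722 reads with HA and none with FLAG. It was 524-fold higher at the 3-read floor (interval of the log2 difference -19.3 to -4.86). ms2-4x:100 Barcode:13 had 254, 1136 and 80 reads with FLAG and none with HA. It was 552-fold higher at that floor, with an interval that began at 14.4-fold. Others rested on fewer libraries: ms2-4x:34 Barcode:36 had 798, 0 and 748 reads with HA, and ms2-4x:68 Barcode:38 had 470, 0 and 314 with FLAG, each with none for the other antibody. In Input libraries 1, 2 and 3, ms2-4x:68 Barcode:38 had 0, 169 and 0 reads, ms2-4x:100 Barcode:13 had 63, 0 and 141, ms2-4x:82 Barcode:14 had 0, 964 and 527, and ms2-4x:34 Barcode:36 had 130, 110 and 363. None of these 4 passed in edgeR (adjusted p = 1.00), and all 4 passed in DESeq2 (largest adjusted p = 0.000229). Which barcode of a tile led also differed between the antibodies. By mean CPM the same barcode was first with FLAG and HA in 17 of 104 tiles, and its share of the tile was small, with a median of 5.58% with FLAG and 5.34% with HA. Between single libraries the leading barcode was the same in 10 to 15 tiles for FLAG and HA of 1 number, in 7 to 9 for 2 FLAG libraries and in 11 to 15 for 2 HA libraries.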

How the data were processed

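The authors deposited raw read counts with libraries as columns, per the file headers, and a line for each barcode of a tile. Values were whole and column totals unequal. The counting program is not given in the sources used here, and molecular identifiers are not described, so the counts are of reads. The intervals hold the spread between libraries, while the floor of 3 reads covers counting error only. Columns were matched to samples by name, with 0 left over. Counts were summed over the 50 barcodes of a tile, passed through filterByExpr, given TMM factors, and compared in R 4.3.3 by the quasi-likelihood test of edgeR 4.0.16 (robust), adjusted by Benjamini-Hochberg over all tested features. The 3 Input libraries entered the fit and so the scaling and the estimate of spread. Barcodes were tested 1 by 1 with the tile scaling factors. SEs were taken as the size of a log2 fold change over the square root of F, and 95% intervals use the t quantile of the fit. Log2 CPM used a prior count of 2. The functions were tested on simulated data, where the planted differences were larger than any fitted for a tile here. Those tests do not speak of smaller differences. DESeq2 1.42.0, other scalings and filters, the replicate number as a block, and left-out libraries or barcodes were alternatives. Tile sequences were not used here.

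For FLAG and HA libraries of 1 number, deviations from the group means over 104 tiles correlated at 0.65, 0.14 and 0.15. All were over the low limit of 0.1, so the numbers were taken to pair the libraries. Only number 1 showed this clearly: FLAG replicate 3 went best with HA replicate 2 (0.59). Deviations from a mean of 3 libraries are also tied to each other, so the pairing is uncertain. The tile and barcode tests, SEs and intervals given in the Results came from fits without the replicate block. The ranges of tile numbers, the tests and the rule for named tiles (5 highest, 5 lowest, 5 smallest p, 5 most abundant, 3 narrowest and 3 widest intervals, and those called against Input with 1 antibody) were chosen with earlier results of these data known. Barcodes named were those of the 5 smallest p and the 3 highest and 3 lowest values.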

Additional observations from a re-analysis of the deposited data

How the results depend on the processing

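All 17 other tile settings gave 0 tiles called (smallest adjusted p = 0.184 in edgeR). With no filter, or with a mean count of at least 50, the same 104 tiles were tested. Those settings therefore could not differ from the main fit over tiles. Barcode calls stayed at 0 except with DESeq2, which gave 141; the cause was not tested. The replicate block gave 0 tiles and 0 barcodes, so it changed no call, and turned ms2-4x:87 to -0.016, or -0.054 with FLAG and HA libraries only. Leaving out single libraries gave a median absolute difference of 0.0892 to 0.140, 32 to 53 tiles with an interval inside 0.5, and a median of -0.044 to -0.0026 over all tiles, of -0.096 to 0.071 over tiles 10 to 67 and of -0.25 to 0.047 from tile 68 on. In the same settings ms2-4x:90 ran from -0.19 to 0.55, ms2-4x:102 from -0.37 to 0.77, ms2-4x:87 from -0.61 to 0.43, ms2-4x:33 from -0.33 to 0.066, ms2-4x:67 from -0.16 to 0.097, ms2-4x:2 from -0.081 to 0.016, ms2-4x:3 from -0.050 to 0.038, ms2-4x:4 from -0.031 to 0.046, ms2-4x:5 from -0.10 to 0.018 and ms2-4x:8 from -0.037 to 0.040. Tiles 3 and 4, near 0, turned to 0.0025 and 0.0036 with RLE factors, 0.011 and 0.011 with library size only, 0.0026 and 0.0036 in DESeq2, 0.00061 and 0.0017 with FLAG and HA libraries only, and 0.0015 and 0.0019 there with the block. Without the barcode of most reads of each tile they were 0.0098 and 0.018, and the median of all tiles 0.0070. The next 2 settings were chosen after seeing the data. Without number 1 of both antibodies the median absolute difference was 0.117 and the median 0.0094, and ms2-4x:90 was at -0.057, tiles 3 and 4 at 0.037 and 0.049, ms2-4x:87 at -0.60 and ms2-4x:67 at 0.042. With only barcodes read in all 6 libraries ms2-4x:100 was at -0.46, ms2-4x:50 at 0.31, ms2-4x:30 at 0.18, and tiles 3 and 4 at 0.0037 and 0.0052; ms2-4x:94 gave no value there. The causes were not tested. The other 158 summary values moved by less than the spread between replicates or, for counts, by less than 1.5 times, but medians near 0 could change sign: over all tiles the median was 0.0010 with RLE factors, 0.0057 with library size only and 0.0011 in DESeq2, and over tiles 2 to 9 it was 0.017 without FLAG replicate 1 or HA replicate 1. The other 315 tile values kept their direction and side of the threshold. Barcodes under 100 mean reads had a median interval margin of 6.38, and those of 1000 or more 0.86.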
